A study of Mus musculus with 7 samples.

Results

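The genes described here are 42 that act in mitosis, the stage at which a cell builds a spindle of microtubules, pulls its copied chromosomes apart and divides. They were taken from a list of gene symbols, drawn up with earlier results of these data known, and all 42 were found among the 49382 genes of the expression table. RNA-seq was performed on wild type mouse embryonic fibroblasts (MEFs), primary cells grown from the bodies of embryos taken at days 13.5 to 14.4 and used at passages 3 to 7, with the head and the blood-forming tissue removed. The study's methods name a slightly later last day and, for MEFs sorted to remove macrophages, a later first passage. One library was made from control MEFs and 1 from each of 6 conditions, with 7 libraries in all. For ER stress, 1 μM thapsigargin, a blocker of the calcium pump of the endoplasmic reticulum, was given for 10 hours. For oxidative stress 10 μM sodium arsenite and for osmotic stress 100 mM NaCl was added, in both cases for 3 hours. Hypoxia (0.1% oxygen) and the depletion of glutamine or of glucose each lasted 10 hours. The labels give no time for the control, which served the conditions of both durations. A difference in time in culture therefore cannot be told apart from the effect of a condition. No condition had a replicate and the labels do not say whether the cultures shared a cell preparation, so differences could not be set against the spread between cultures and no p-value is given.

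Entry into mitosis is driven by the kinase CDK1, which is active only when bound to a cyclin of the A or B type. Kinases of the Polo and Aurora families then build the spindle, kinetochores attach chromosomes to it, and the spindle checkpoint delays separation until all are attached. The anaphase-promoting complex ends mitosis by marking cyclin B and securin for destruction, and a contractile ring cuts the cell. Most of these genes are transcribed late in the cell cycle, in G2 and mitosis, so in bulk RNA their level follows the share of cells in those stages as well as the RNA in each cell. Fewer cells in G2 and mitosis and less RNA per such cell cannot be told apart here.

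Levels are given in TPM, a measure that is corrected for transcript length and sums to 1000000 in each library. A change is the difference of log2(TPM + 1) from the control library, and "fell" and "rose" are used only for changes past 2-fold on that scale. All 42 were among the 12909 genes that passed the expression filter, a mean across libraries of 2 TPM or more. In every library the 10 fibroblast markers had a far higher summed level than the markers of other cells. It was 8766 TPM in ER stress and 13858 to 16304 TPM elsewhere, and all 10 were above 0 TPM throughout. The summed levels of markers of other cells stayed at or below 14.9 TPM for 8 macrophage, 7.31 TPM for 5 endothelial, 0.787 TPM for 5 erythroid and 36.2 TPM for 4 muscle genes. Of 5 epithelial genes the sum was 41.6 to 76.0 TPM, except for 159 TPM in hypoxia. How deeply each library was sequenced is unknown, since TPM hold no read counts.

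At least 40 of the 42 mitosis and spindle genes were below the control in each of ER, oxidative and osmotic stress and glutamine depletion. Of all genes 48.5%, 66.0%, 61.6% and 60.0% were below it. None of the 42 rose past 2-fold in any condition. In ER stress 23 of 42 fell by more than 2-fold (11.0% of all genes), in oxidative stress 11 (4.85%) and in osmotic stress 7 (8.76%). None passed 2-fold in glutamine depletion, hypoxia or glucose depletion, where 3.21%, 2.64% and 2.41% of all genes fell. Rises past 2-fold, at 0 of 42 in each condition, were seen in 8.60% of all genes in ER stress, 3.94% in oxidative and 3.08% in osmotic stress, 3.21% without glutamine, 3.57% in hypoxia and 1.83% without glucose. The summed level of the 42 genes was 2134 TPM in the control, 1108 under ER, 1292 under oxidative and 1405 under osmotic stress, 1582 without glutamine, 1780.3 in hypoxia and 2058 without glucose. In ER stress the sum was thus 51.9% of the control, and in glucose depletion 96.4%. The lowest of the 7 libraries was ER stress for 26 genes, osmotic stress for 9 and oxidative stress for 7, and so 1 of these 3 for every gene of the list. Across all genes that passed the filter, these 3 libraries were the lowest for 25.1%, 22.0% and 18.2%, together 65.4%. The control was the highest library for 25 of the 42 genes and for 11.7% of all genes.

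**Figure D1:**
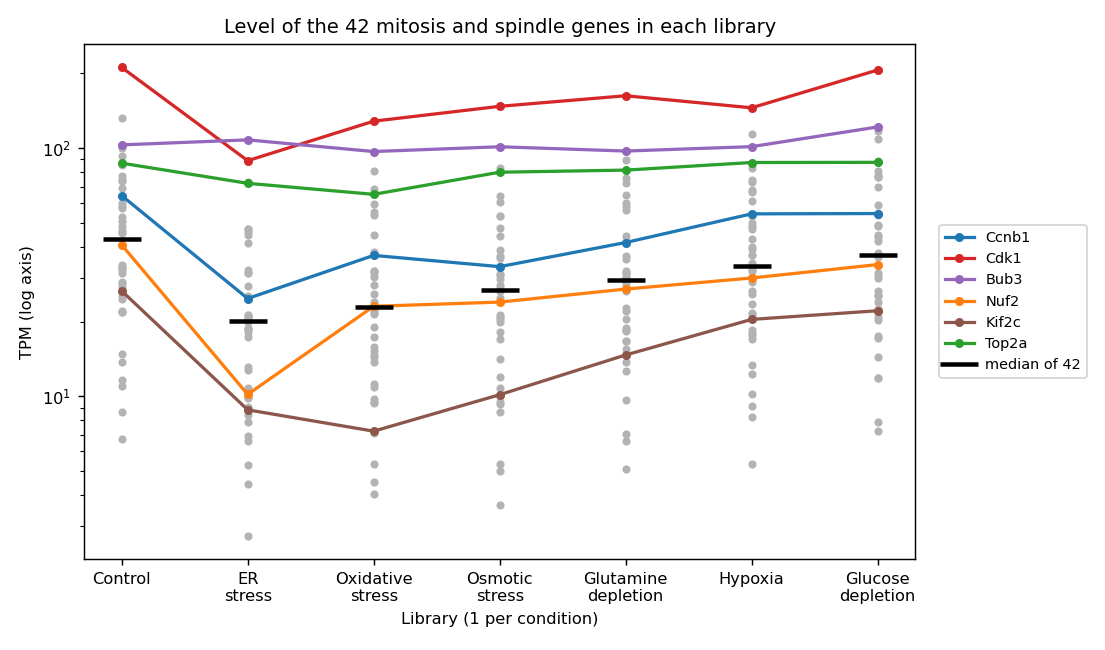
TPM (log axis) of the 42 mitosis and spindle genes in the 7 libraries, with 6 genes joined by coloured lines, the others as grey points, and the median of the 42 as black bars. The median is highest in the control at 43.1 TPM and lowest in ER stress at 20.1 TPM, while Bub3 and Top2a stay nearly level.

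In ER stress, 54.8% of the mitosis and spindle genes fell by more than 2-fold, against 11.0% of all genes that passed the filter. Their median log2 change was -1.08, while that of all genes was 0.00, and 41 of the 42 were below the control, as were 48.5% of all genes. The fall reached every group of the machinery except the factors of anaphase and the transcription factor Foxm1, in which no gene passed 2-fold. With the median of the other 6 libraries as the reference in place of the control, 9 genes fell and the median was -0.68.

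The cyclins and their kinase fell together in ER stress. Ccnb1 (chromosome 13 from 100778650 to 100786570 in GRCm38), which encodes cyclin B1, stood at 64.3 TPM in the control, 24.8 under ER, 36.9 under oxidative and 33.3 under osmotic stress, 41.6 without glutamine, 54.3 in hypoxia and 54.5 without glucose. Its control level is the highest of the 7 and its ER stress level the lowest, with a log2 change of -1.34. Cdk1 (chromosome 10 from 69335146 to 69352938), the most abundant of the 42 genes in the control, stood at 211 TPM in the control, 89.0 under ER, 128 under oxidative and 147 under osmotic stress, 163 without glutamine, 145 in hypoxia and 206 without glucose. Only in the ER stress library was it below 100 TPM, and its log2 change there was -1.24. Ccnb2, the other B-type cyclin of dividing somatic cells, went from 46.6 to 18.1 TPM (-1.32). Cyclin A2, encoded by Ccna2, went from 74.5 to 32.1 TPM (-1.19). The phosphatases of the CDC25 family, which remove the inhibitory phosphates from CDK1, were split. Cdc25b fell in ER stress from 28.4 to 10.8 TPM, and Cdc25c, on chromosome 18 from 34732993 to 34751533, stayed within 2-fold at 8.65 and 6.91 TPM.

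Of the 7 genes of the centromere and kinetochore, 6 fell in ER stress, the largest number of any group of the list. Nuf2 (chromosome 1 from 169497934 to 169531464), a subunit of the NDC80 complex that holds microtubules, had the largest fall of all 42 and stood at 40.7 TPM in the control, 10.2 under ER, 23.0 under oxidative and 24.0 under osmotic stress, 27.0 without glutamine, 30.0 in hypoxia and 33.9 without glucose. The other 6 libraries all stand above 20 TPM, far from the ER stress value, and the log2 change was -1.90. The other 3 subunits of the same complex also fell, Spc24 by a log2 change of -1.59, Spc25 by -1.45 and Ndc80 by -1.08. Spc24 (chromosome 9 from 21755442 to 21760303) stood at 21.8 TPM in the control, 6.59 under ER, 17.4 under oxidative and 12.0 under osmotic stress, 20.5 without glutamine, 17.9 in hypoxia and 22.0 without glucose. Its other stressed libraries hold more than 1.5 times its ER stress level. Cenpa (chromosome 5 from 30666777 to 30674830), the histone variant that marks centromeres, stood at 60.2 TPM in the control, 25.4 under ER, 28.0 under oxidative and 27.1 under osmotic stress, 36.8 without glutamine, 43.2 in hypoxia and 58.8 without glucose. The ER, oxidative and osmotic stress libraries lie together between 25.4 and 28.0 TPM, and each is past 2-fold below the control. Cenpf, a large protein of the outer kinetochore, had the lowest level of the 42 genes in the control and went from 6.75 to 2.74 TPM (-1.05). At such levels the pseudocount of 1 TPM understates the change. Cenpe, a kinesin that moves chromosomes to the spindle middle, was the exception at -0.83.

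Among the spindle motors and microtubule binders, 3 of 5 fell in ER stress. Nusap1 (chromosome 2 from 119618298 to 119651244), which bundles spindle microtubules, stood at 31.4 TPM in the control, 8.41 under ER, 9.41 under oxidative and 17.1 under osmotic stress, 16.6 without glutamine, 21.5 in hypoxia and 25.5 without glucose. Both ER and oxidative stress are below 10 TPM, and the log2 changes there were -1.79 and -1.64. Kif2c, a kinesin that takes microtubules apart, changed by -1.49 in ER stress, and Kif11, the motor that pushes the spindle poles apart, by -1.22. The table lists Kif11 under 2 identifiers with the same values, 11.7 TPM each in the control, and 1 of them was used. With the rows summed, its ER stress change was -1.30. Tpx2, an activator of Aurora A, was at -0.67, and the chromosome-bound kinesin Kif4 stayed close to the control at 13.8 and 12.7 TPM (-0.11).

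Of the 6 genes of the central spindle and of cytokinesis, 2 fell in ER stress. Prc1 (chromosome 7 from 80294450 to 80316259), which crosslinks the microtubules of the central spindle, stood at 92.6 TPM in the control, 31.4 under ER, 59.3 under oxidative and 60.4 under osmotic stress, 75.9 without glutamine, 82.8 in hypoxia and 88.8 without glucose. It fell in ER stress (-1.53), with every other library above 55 TPM, and so did the kinesin Kif20a, from 57.5 to 20 TPM (-1.48). The other 4 were below the control without passing 2-fold. These were the partners Kif23 (-0.93) and Racgap1 (-0.87) of the centralspindlin complex, Ect2 (-0.53), which switches on the small GTPase RhoA at the cleavage site, and the ring scaffold Anln (-0.55). Kif23 (chromosome 9 from 61915905 to 61946774) stood at 85.7 TPM in the control, 44.5 under ER, 37.9 under oxidative and 36.8 under osmotic stress, 58.2 without glutamine, 66.7 in hypoxia and 80.7 without glucose. Unlike Prc1 it was lowest in osmotic and oxidative stress, where it passed 2-fold.

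Of the mitotic kinases, Plk1 fell by a log2 change of -1.16 and Aurka by -1.07 in ER stress. Aurka (chromosome 2 from 172356190 to 172370535), which encodes the Aurora kinase of the spindle poles, stood at 45.8 TPM in the control, 21.2 under ER, 21.9 under oxidative and 19.9 under osmotic stress, 31.5 without glutamine, 32.0 in hypoxia and 44.5 without glucose. It passed 2-fold in ER, oxidative and osmotic stress, with values within 2 TPM of each other. Ttk, the kinase that starts the spindle checkpoint, was at -0.93, and Plk4, which controls the copying of centrioles, at -0.23. Plk4 (chromosome 3 from 40800019 to 40816883) stood at 22.1 TPM in the control, 18.7 under ER, 15.3 under oxidative and 25 under osmotic stress, 22.0 without glutamine, 17.6 in hypoxia and 22.4 without glucose. Osmotic stress was its highest library, the single case of this among the 42 genes. In the chromosomal passenger complex, the subunits Birc5 (survivin), from 99.6 to 41.5 TPM (-1.24), and Cdca8 (borealin), from 45.6 to 20.7 TPM (-1.10), fell, and the kinase Aurkb (-0.65) and the scaffold Incenp (-0.61) did not pass 2-fold. Of the 4 subunits Incenp changed least and went from 32.5 to 20.9 TPM. Within the spindle checkpoint, the kinase Bub1 fell from 24.8 to 9.90 TPM (-1.24) and the related Bub1b from 25.3 to 9.01 TPM (-1.39). Mad2l1, whose protein holds back the anaphase-promoting complex, was just short of 2-fold at -0.99. Bub3 (chromosome 7 from 131560222 to 131571895), their binding partner, stood at 103 TPM in the control, 108 under ER, 96.9 under oxidative and 101 under osmotic stress, 97.3 without glutamine, 101 in hypoxia and 122 without glucose. It had the narrowest range of the 42 genes, with the highest library 1.26 times the lowest, and was the single gene above the control in ER stress (0.07). Cdc20 (-0.70) and Ube2c (-0.84), which act with the anaphase-promoting complex, and Pttg1 (-0.93), which encodes securin, were below the control within 2-fold. Cdc20 (chromosome 4 from 118432901 to 118437352) stood at 77.1 TPM in the control, 47.0 under ER, 44.8 under oxidative and 38.9 under osmotic stress, 44.2 without glutamine, 49.7 in hypoxia and 76.7 without glucose. Its lowest library was osmotic stress (-0.97), just short of 2-fold. Ube2c (chromosome 2 from 164769898 to 164778822) stood at 132 TPM in the control, 73.0 under ER, 81.1 under oxidative and 83.2 under osmotic stress, 89.8 without glutamine, 114 in hypoxia and 117 without glucose, and Pttg1 at 33.8 TPM in the control, 17.3 under ER, 32.0 under oxidative and 30.9 under osmotic stress, 27.5 without glutamine, 40 in hypoxia and 36.3 without glucose. Pttg1 was low in ER stress, whereas its oxidative and osmotic stress levels lay near the control.

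Common markers of proliferating cells differed from each other. Top2a (chromosome 11 from 98992943 to 99024189), the topoisomerase that untangles copied chromosomes, stood at 86.9 TPM in the control, 72.1 under ER, 65.1 under oxidative and 80.0 under osmotic stress, 81.5 without glutamine, 87.5 in hypoxia and 87.6 without glucose. All 7 values lie within 1.35 times of each other. Mki67 (chromosome 7 from 135689784 to 135716361), which encodes the Ki-67 antigen of dividing cells, stood at 28.9 TPM in the control, 13.2 under ER, 21.5 under oxidative and 27.3 under osmotic stress, 29.5 without glutamine, 30.3 in hypoxia and 30.4 without glucose. It fell in ER stress (-1.08), whereas in the 3 other conditions of 10 hours it stood slightly above the control. Foxm1 (chromosome 6 from 128362967 to 128376146), a transcription factor of many genes of this list, stood at 33.2 TPM in the control, 27.8 under ER, 22.6 under oxidative and 28.1 under osmotic stress, 26.7 without glutamine, 32.6 in hypoxia and 30.0 without glucose. It changed by -0.25 in ER stress and by -0.54 in oxidative stress, where it was lowest.

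**Figure D2:**
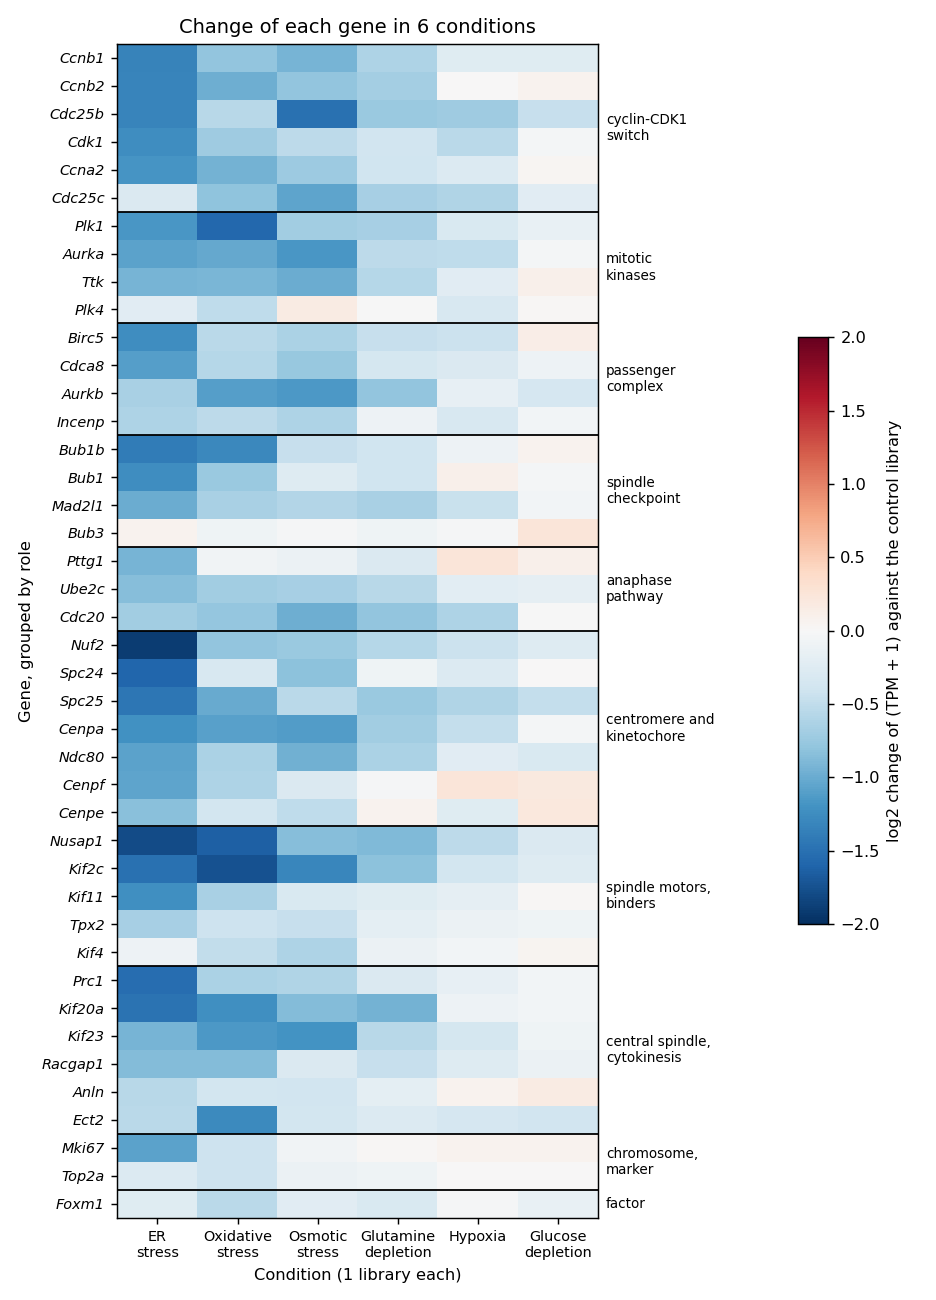
Log2 change of (TPM + 1) against the control library for each of the 42 genes (rows, grouped by role) in 6 conditions (columns, 1 library each), from blue for lower to red for higher. The ER stress column is darkest at Nuf2 (-1.90), the oxidative stress column at Kif2c (-1.74) and the osmotic stress column at Cdc25b (-1.49). The 3 columns on the right are paler, with no change past 2-fold, and glutamine depletion is the darkest of them (Kif20a, -0.94).

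The ER stress library could also be set against the other libraries of the same duration, which leaves the control out. Against glucose depletion 42 of 42 genes were lower (45.4% of all genes) and 23 were lower by more than 2-fold (9.71% of all genes). Against hypoxia 39 were lower (46.2%) and 14 passed 2-fold (11.5%), and the median difference was -0.72. Against glutamine depletion 36 were lower (42.6%), 5 passed 2-fold and the median difference was -0.54. That share, 5 of 42, is near the 9.94% of all genes that passed. Nuf2 had the largest difference from both hypoxia (-1.47) and glucose depletion (-1.64), and Spc24 from glutamine depletion (-1.50). The summed level of the 10 fibroblast markers was also lowest in ER stress, as given above, and its part in these differences was not tested.

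After 3 hours of arsenite, all 42 genes were below the control and 11 fell by more than 2-fold. Of all genes, 66.0% were below the control and 4.85% fell. The median of the list was -0.71, against -0.16 for all genes. Relative to that shift of all genes, 40 of 42 were lower, 6 fell and the median was -0.55. Against the median of the other 6 libraries 3 fell and the median was -0.42. Mitochondrially encoded RNA took 9.25% of the oxidative stress library and 6.37% of the control, and with it removed 9 genes fell and the median was -0.66.

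Kif2c (chromosome 4 from 117159639 to 117182639) had the largest fall in oxidative stress and stood at 26.6 TPM in the control, 8.81 under ER, 7.23 under oxidative and 10.1 under osmotic stress, 14.7 without glutamine, 20.4 in hypoxia and 22.1 without glucose. The ER, oxidative and osmotic stress libraries lie at or below 10.1 TPM and the other 4 libraries at or above 14.7 TPM. Plk1 (chromosome 7 from 122159439 to 122169873), the Polo kinase required at nearly every step of mitosis, stood at 48.7 TPM in the control, 21.3 under ER, 15.7 under oxidative and 29.7 under osmotic stress, 30.4 without glutamine, 39.3 in hypoxia and 43.7 without glucose. Its lowest library was oxidative stress, with a log2 change of -1.57. The RhoA activator Ect2 (chromosome 3 from 27097222 to 27153878) stood at 27.7 TPM in the control, 18.8 under ER, 10.9 under oxidative and 21.2 under osmotic stress, 22.6 without glutamine, 21.7 in hypoxia and 20.9 without glucose. Only oxidative stress took it past 2-fold (-1.27), and the other 5 stressed libraries held 18.8 to 22.6 TPM. The other falls in oxidative stress were those of Nusap1, Bub1b (-1.29), Kif20a (-1.23), Kif23 (-1.15), Aurkb (-1.10), Cenpa (-1.08), Aurka (-1.03) and, at the threshold, Spc25 (-1.0). Of these 11 genes, 3 act in the central spindle and cytokinesis, a group in which ER stress lowered 2 of 6 past 2-fold. None of the 6 cyclin and CDK1 genes passed 2-fold, and their changes ran from -0.97 for Ccnb2 to -0.55 for Cdc25b. Ccnb1 was at -0.78 and Top2a at -0.41. Closest to the control were Pttg1 (-0.08) and Bub3 (-0.09), and the scaling on all genes put both above it.

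After 3 hours of added NaCl, 41 of 42 genes were below the control (61.6% of all genes) and 7 fell, or 16.7% against 8.76% of all genes. The median was -0.63, against -0.12 for all genes, and relative to that shift it was -0.51 with 6 falls. Against the median of the other 6 libraries none fell and the median was -0.29. Cdc25b (chromosome 2 from 131186949 to 131198497), the phosphatase that first activates CDK1 at the centrosome, fell most and stood at 28.4 TPM in the control, 10.8 under ER, 19.0 under oxidative and 9.44 under osmotic stress, 16.6 without glutamine, 16.9 in hypoxia and 20.3 without glucose. Osmotic stress gave its lowest value (-1.49), with ER stress next, and the control its highest. Aurkb (chromosome 11 from 69045647 to 69051664), the kinase of the passenger complex, stood at 32.4 TPM in the control, 20.3 under ER, 14.6 under oxidative and 14.1 under osmotic stress, 18.3 without glutamine, 29.0 in hypoxia and 25.4 without glucose. The 2 conditions of 3 hours are its lowest, near 14.1 TPM. Kif2c (-1.31), Kif23 (-1.20), Aurka (-1.16), Cenpa (-1.12) and Cdc25c (-1.05) made up the rest. Ccnb1 was at -0.93. Mki67 (-0.08), Top2a (-0.12), Pttg1 (-0.12) and Bub3 (-0.02) were near the control, and Plk4 was above it (0.17).

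Set directly against each other, the libraries of the 2 conditions of 3 hours gave a median difference of -0.05 over the 42 genes, with 23 lower and 19 higher in oxidative stress, where 52.6% of all genes were lower, and none past 2-fold. Ect2 was the furthest below in oxidative stress (-0.90) and Cdc25b the furthest above (0.94). Of all genes, 7.86% were more than 2-fold higher and 3.90% lower in oxidative than in osmotic stress.

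**Figure D3:**
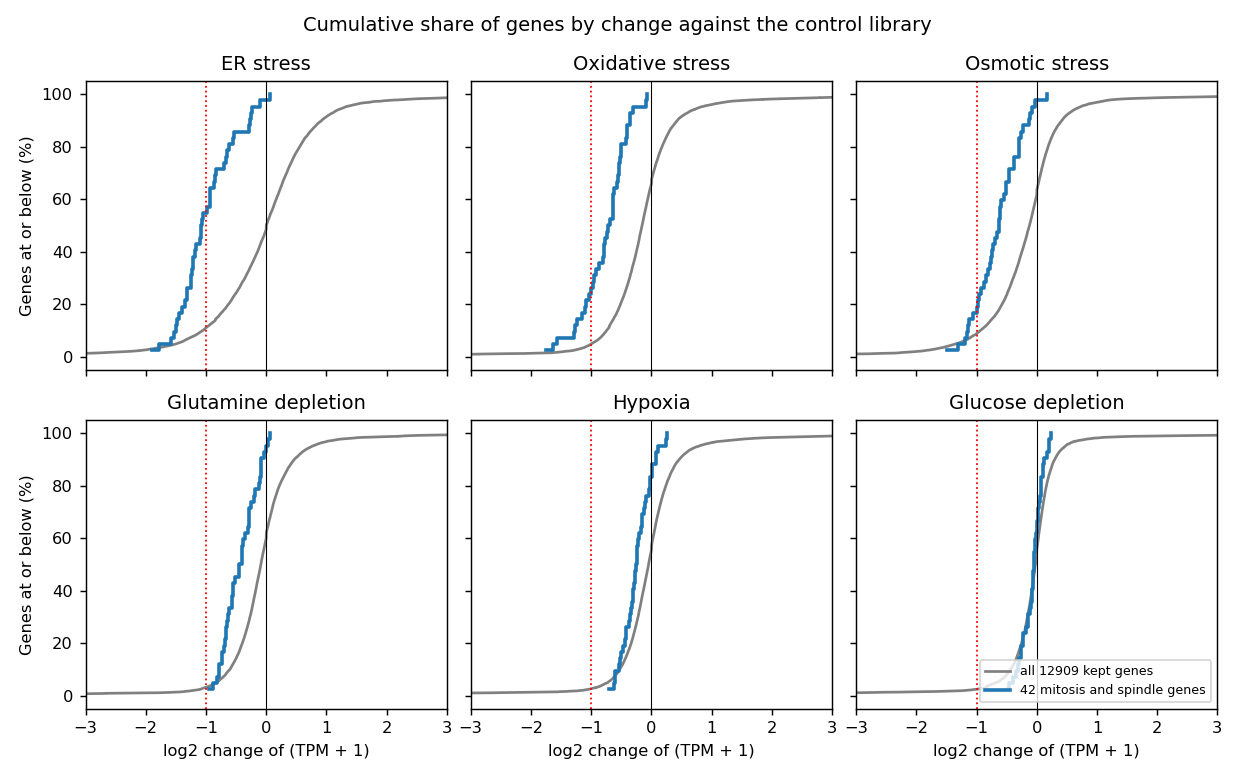
Cumulative share (%) of the 42 mitosis and spindle genes (blue) and of all 12909 genes that passed the filter (grey) by log2 change of (TPM + 1) against the control, 1 panel per condition, with 2-fold lower as a red dotted line. The blue curve stands left of the grey one in 5 panels, most in ER stress, and the curves nearly meet in glucose depletion.

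After 10 hours without glutamine 40 of 42 genes were below the control, against 60.0% of all genes. No gene passed 2-fold (3.21% of all genes fell), and the median was -0.43, or -0.0245 against the median of the other 6 libraries. At a threshold of 1.5-fold 14 genes, or 33.3%, were lower, where 10.6% of all genes were. Kif20a (-0.94), Nusap1 (-0.88), Kif2c (-0.82), Aurkb (-0.79) and Cdc20 (-0.79) were the furthest below. Kif20a, a motor of late mitosis on chromosome 18 from 34624613 to 34633277, stood at 57.5 TPM in the control, 20 under ER, 23.9 under oxidative and 31.0 under osmotic stress, 29.4 without glutamine, 53.4 in hypoxia and 55.0 without glucose. Its glutamine depletion level lies near that of osmotic stress, and its glucose depletion and hypoxia levels near the control. Ccnb1 was at -0.62 and Top2a at -0.09. Cenpe (0.07) and Mki67 (0.03) were above the control.

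Glutamine depletion was compared with glucose depletion of the same duration without the control. It was lower in 41 of 42 genes, with a median difference of -0.35, while 54.7% of all genes were lower. None of the 42 passed 2-fold, past which 2.37% of all genes were lower and 3.12% higher. The largest difference was that of Kif20a (-0.88), and Ect2 was the single gene that was higher (0.11).

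In hypoxia 35 of 42 genes were below the control, against 55.5% of all genes, and the median was -0.25. None fell past 2-fold, where 2.64% of all genes did, and at 1.5-fold 4 genes were lower, a share of 9.52% close to the 8.10% of all genes. Cdc25b (-0.71), Cdc20 (-0.62), Spc25 (-0.60), Cdc25c (-0.60) and Cdk1 (-0.54) were the furthest below. Ccnb2 (0.01) was level with the control, whereas Ccnb1 lay at -0.24 and Top2a at 0.01. Cenpf (0.25), Pttg1 (0.24), Bub1 (0.10), Mki67 (0.07) and Anln (0.07) were above the control.

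The glucose depletion library was the nearest to the control, with 26 genes below it, 16 above it and a median of -0.04, where 53.7% of all genes were below it. None passed 2-fold, where 2.41% of all genes fell, and none was lower by 1.5-fold, where 6.23% were. Spc25 (-0.47), Cdc25b (-0.46), Ect2 (-0.39), Aurkb (-0.34) and Ndc80 (-0.31) were lowest, and Bub3 (0.24), Cenpe (0.21), Cenpf (0.20), Anln (0.16) and Birc5 (0.13) highest. Ccnb1 was at -0.24 and Top2a at 0.01. This library and the control therefore gave the list 2 similar values, with medians of 37.1 and 43.1 TPM. The direction of the small changes in hypoxia and glucose depletion depended on the reference, since against the median of the other 6 libraries the medians were 0.22 and 0.39.

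Over the 7 libraries, the Pearson r of each gene's log2(TPM + 1) with the mean of the other 41, each standardised, had a median of 0.90. Ccna2 followed the others most closely (0.99), and Bub3 (0.34), Plk4 (0.37) and Cdc25c (0.49) least. These points share their libraries and, because TPM are shares, the composition of each library. Among 10729 other genes whose mean reached 5 TPM, the mitotic kinesin Kif20b was the most similar to the mean of the list, with an r of 0.988. It was followed by the β-tubulin gene Tubb5 (0.983), Cmtm7 (0.979), the spindle gene Ckap2 (0.979), C330027C09Rik (0.975), Tmem53 (0.974), Slfn9 (0.973), Tns2 (0.972) and 1600012H06Rik (0.971). Irgm1 (0.969), the cell division gene Cdca3 (0.969), Tor4a (0.968), Fyco1 (0.967) and the β-tubulin gene Tubb4b (0.966) were also among the first 15, of which 3 belong to the list of further mitosis genes used below. An r does not measure the size of a change. From the control library to ER stress, Tubb5 went from 1014 to 710.2 TPM, Ckap2 from 42.2 to 17.5 TPM and Cmtm7 only from 86.3 to 75.3 TPM.

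Other genes of the cell cycle were read from the same libraries as lists, beside the 42. A list of 60 further mitosis genes, 59 of which passed the filter, gave 21 falls under ER, 13 under oxidative and 12 under osmotic stress, with medians of -0.82, -0.65 and -0.65. Of all genes 11.0%, 4.85% and 8.76% fell in these conditions. Without glutamine Pimreg (-1.49) and Parpbp (-1.05) fell, and in hypoxia and glucose depletion none did. Depdc1a (-1.58), the kinases Melk (-1.45) and Pbk (-1.36), and the spindle proteins Knstrn (-1.34) and Fam83d (-1.32) changed most in ER stress. No gene of that list rose in any condition.

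Genes of DNA replication, which are transcribed before mitosis at the G1 to S transition, had medians nearer to 0 than the mitosis genes in the stresses of 3 hours, a difference between lists that was not tested. Of 42 such S-phase genes, Ung fell in oxidative stress (-1.03), where 4.85% of all genes fell. Ung and Gins3 fell in osmotic stress (both -1.66), where 8.76% of all genes did. The medians were -0.42 and -0.22, beside -0.71 and -0.63 for the mitosis genes. In ER stress 9 fell (11.0% of all genes) and 1 rose (8.60%), with a median of -0.61. Tk1, the thymidine kinase of dividing cells, went from 56.6 to 11.0 TPM (-2.26), and the ribonucleotide reductase subunit Rrm1 from 117 to 45.4 TPM (-1.34). The DNA ligase Lig1 (-1.32) and the chromatin assembly subunit Chaf1b (-1.23) also fell, while Ung, which removes uracil from DNA, rose from 8.40 to 24.4 TPM. In hypoxia the S-phase median of -0.48 was below the mitosis median of -0.25. There Ung (-1.09) and Clspn (-1.07), a mediator of the replication checkpoint, fell, as did 2.64% of all genes. Without glutamine the S-phase median was -0.39, near the -0.43 of the mitosis genes. There 2 S-phase genes fell, Ung (-1.35) and Pola2 (-1.06), as did 3.21% of all genes. In glucose depletion the S-phase median was 0.06.

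**Figure D4:**
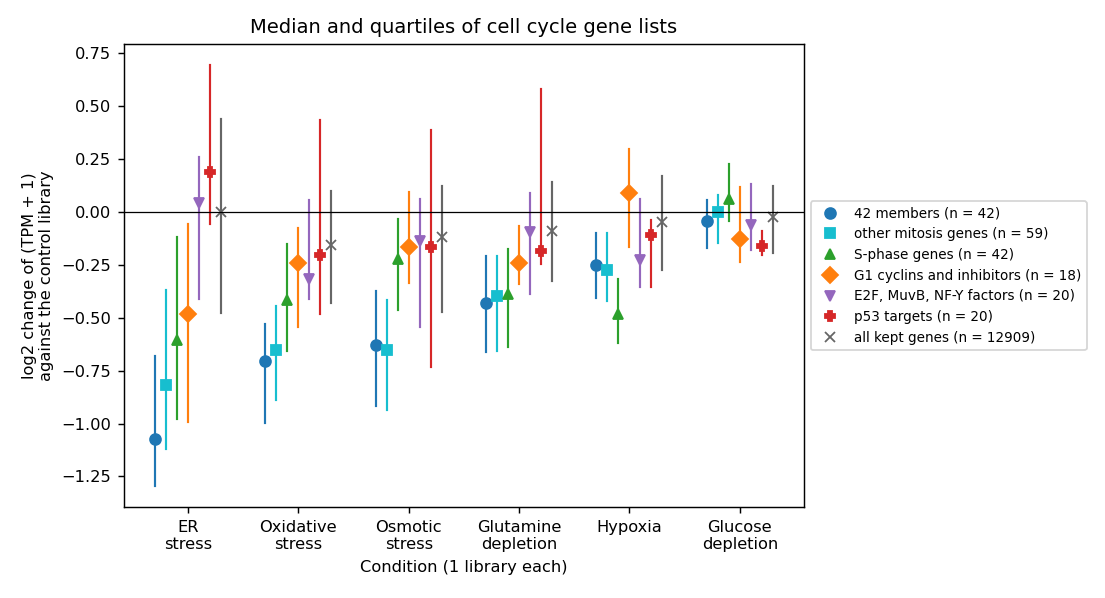
Median (symbols) and quartiles (bars) of the log2 change of (TPM + 1) against the control for the 42 members, 5 other cell cycle lists and all genes that passed the filter, in 6 conditions. The medians of the 42 members are -1.08, -0.71 and -0.63 in the first 3 conditions, and in hypoxia the S-phase median (-0.48) is the lowest of the lists.

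Regulators of the cycle gave mixed values. Of 18 G1 cyclins, kinases and CDK inhibitors, 5 fell and 1 rose in ER stress (11.0% and 8.60% of all genes). Myc rose there from 56.8 to 265 TPM (2.20), whereas the G1 cyclins Ccne1 (-1.35) and Ccnd3 (-1.16) and the inhibitors Cdkn2d (-1.31) and Cdkn2c (-1.25) fell. Without glutamine Myc also rose (1.33) and Cdkn2d fell (-1.37), each 1 of 18, where 3.21% of all genes rose and 3.21% fell. Cdkn2d was also the 1 gene of the 18 that fell in oxidative stress (-1.16), where 4.85% of all genes fell. Of 20 factors of the E2F, MuvB and NF-Y families, which act on cell cycle promoters, 1 rose and 1 fell in ER stress, shares below the 8.60% and 11.0% of all genes, and the median was 0.04. E2f8 fell (-1.54), Lin52 of the MuvB core rose (1.39), and Mybl2, which joins that core to switch on mitosis genes, went from 16.0 to 8.40 TPM (-0.85). Among 20 targets of p53, 3 rose and 1 fell in ER stress (8.60% and 11.0% of all genes), led by Gadd45a (3.20) and Fas (-2.17). In oxidative stress 3 of the 20 also rose and 1 fell (3.94% and 4.85% of all genes), and Plk3 rose most (1.48). In osmotic stress 8.76% of all genes fell. There the p53 targets Bbc3 (-1.62), Btg2 (-1.26) and Sesn2 (-1.24) fell, as did Lin37 of the MuvB core (-1.73) and the NF-Y subunit Nfya (-1.28). Cdkn1a, which encodes the CDK inhibitor p21 and was chosen after its values were seen, was at 364 TPM in the control and 355, 333 and 482 TPM in ER, oxidative and osmotic stress.

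Promoters of genes of G2 and mitosis are known for 2 short elements, the CHR (cell cycle genes homology region, bound by MuvB complexes) and the CCAAT box (bound by NF-Y). Both were searched on either strand, as TTTGAA and CCAAT, in RefSeq promoters of GRCm38.p6 that run from 250 bases before to 50 bases after the gene start. That start is the one of the RefSeq promoter and can differ from the GENCODE gene positions given above. The table used here matched 34 of the 42 genes, and Aurkb, Ccna2, Cdc25c, Foxm1, Incenp, Kif20a, Spc24 and Tpx2 were not matched. The CHR letters were in 24 of 34 promoters (70.6%) and in 18.1% of 27025 promoters of all genes, 1 per gene. CCAAT was in 25 of 34 (73.5%, against 37.9%), and both were in 21 (61.8%, against 7.12%). A CHR began within 50 bases of the start in 22 of 34, or 64.7%, against 4.92% of all promoters. In 13 of 34 (38.2%, against 0.918%) a CCAAT box began 20 to 40 bases before a CHR. Both of these windows were chosen after the positions were seen. The promoters of Cdca8, counted in the 22, and of Kif2c, counted in the 24, lie inside the GENCODE span of their gene. The letters of both elements overlapped in 1 of the 34 (2.94%, against 0.148%).

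The sequences of the 6 most abundant matched genes that hold the CHR letters are shown so that the spacing can be read beside the values above. Each runs from 150 bases before the RefSeq start to 20 after it. This start is not always the GENCODE one, and the Bub3 stretch begins at 131560220, beside a GENCODE start of 131560222. Capitals mark TTTGAA (or TTCAAA on the other strand) and CCAAT (or ATTGG).
Cdk1 (chr10:69352893-69353062, minus strand): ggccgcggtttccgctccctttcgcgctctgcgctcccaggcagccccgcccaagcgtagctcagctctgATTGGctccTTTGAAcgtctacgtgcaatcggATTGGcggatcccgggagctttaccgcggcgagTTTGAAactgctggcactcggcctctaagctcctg
Ube2c (chr2:164769779-164769948, plus strand): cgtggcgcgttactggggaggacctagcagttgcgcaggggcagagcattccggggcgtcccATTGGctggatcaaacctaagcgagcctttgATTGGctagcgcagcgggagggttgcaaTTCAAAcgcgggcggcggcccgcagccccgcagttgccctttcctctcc
Bub3 (chr7:131560220-131560389, plus strand): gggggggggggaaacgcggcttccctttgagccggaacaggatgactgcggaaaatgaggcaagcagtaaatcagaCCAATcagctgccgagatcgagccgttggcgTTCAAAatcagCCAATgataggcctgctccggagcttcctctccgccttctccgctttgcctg
Prc1 (chr7:80294301-80294470, plus strand): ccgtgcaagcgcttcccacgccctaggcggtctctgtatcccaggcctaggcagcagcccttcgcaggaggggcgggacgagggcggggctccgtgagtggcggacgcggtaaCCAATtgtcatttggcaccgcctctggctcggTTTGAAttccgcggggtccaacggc
Top2a (chr11:99024170-99024339, minus strand): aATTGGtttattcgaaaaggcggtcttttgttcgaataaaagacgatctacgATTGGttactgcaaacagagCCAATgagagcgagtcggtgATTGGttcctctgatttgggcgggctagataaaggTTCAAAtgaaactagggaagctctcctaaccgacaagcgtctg
Kif23 (chr9:61946780-61946949, minus strand): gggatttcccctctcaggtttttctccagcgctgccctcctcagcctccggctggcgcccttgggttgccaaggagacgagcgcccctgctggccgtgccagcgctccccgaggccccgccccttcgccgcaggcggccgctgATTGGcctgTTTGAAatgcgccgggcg

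In this stretch, Cdk1 holds 2 CHR and 2 CCAAT matches, Top2a 1 and 4, Ube2c and Bub3 1 and 2 each, and Prc1 and Kif23 1 of each. The genes with these matches differed in expression. Prc1 and Cdk1 fell in ER stress (-1.53 and -1.24), while Bub3 (0.07) and Top2a (-0.27) stayed near the control. A match describes the letters of a promoter, and binding of a factor in these cells was not measured in the libraries used here.

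**Figure D5:**
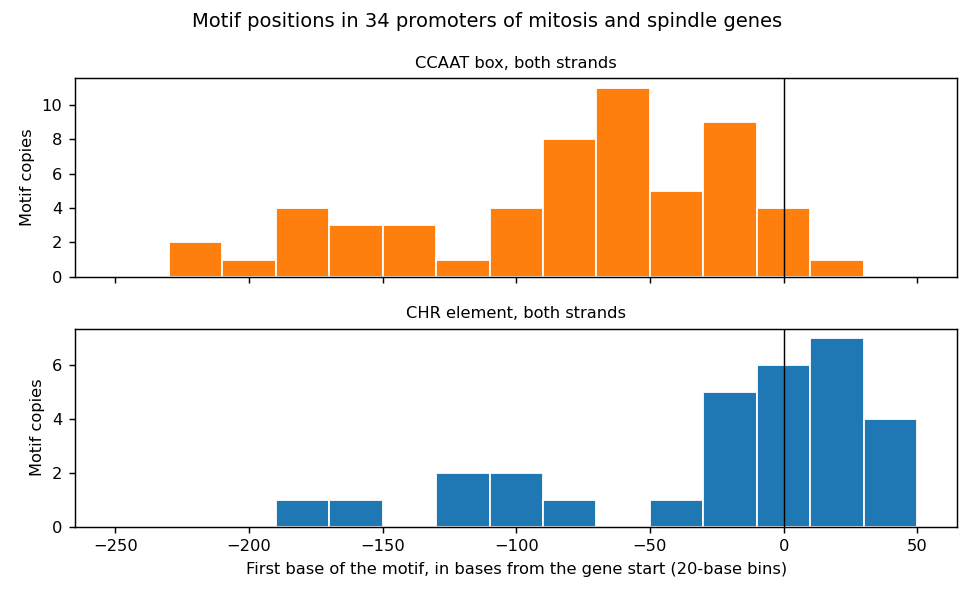
Number of copies of the CCAAT box (upper panel) and of the CHR element (lower panel) by the distance of their first base from the RefSeq gene start, in 20-base bins, over 34 promoters of mitosis and spindle genes. The 30 CHR copies gather around the start, and the 56 CCAAT copies lie mostly before it.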

How the data were processed

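Total RNA of 7 MEF cultures was sequenced from stranded mRNA libraries. Per the methods and the submitters' processing notes, reads were assigned with Kallisto 0.43.1 to mouse cDNA sequences (GRCm38, Ensembl release 90). The authors summed the TPM of a gene's transcripts and deposited these sums. A TPM is a share of its library and can shift with the share of other genes, and read depth is lost.

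Samples were mapped to conditions from their treatment labels. Changes are log2(TPM + 1) of a condition minus that of the control, from the deposited TPM. The 2-fold rule follows the study's methods. The filter, a mean of 2 TPM or more, left 12909 of 49382 genes. Members, lists and settings were chosen with earlier results of these data known. The rule for named genes allowed all 42 members, the 5 genes of each other list that changed most in a condition, and the 15 most similar genes, of which 1 is not reported here. With 1 library per condition no test was run. GENCODE M21 (GRCm38) gave gene positions and types by identifier, and 125 kept genes had no match. Alternatives were pseudocounts of 0.1 and 5 TPM, no filter or one at a mean of 10 TPM, centring on all genes, removal of mitochondrially encoded genes, the median of the other 6 libraries as reference, and thresholds of 1.5-fold and 3-fold. The sum of both Kif11 rows and a background of protein-coding genes were added after seeing the data. Steps were tested on simulated data. The work used Python 3.11.15 with pandas 2.3.3, numpy 2.4.6 and, for plots, matplotlib 3.10.9.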

Additional observations from a re-analysis of the deposited data

How the results depend on the processing

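No paired analysis was possible because each condition has 1 library. Over the 10 alternatives, 168 counts and medians of the 42 genes were compared with the main values. Of these, 148 kept their sign and stayed within 1.5 times of the main count, or within the 95% order-statistic interval of the median over members. Many of them could not move, since all 42 genes passed the filter and none rose past the threshold in any setting. The interval covers the spread over genes of 1 library, which are not replicates, and was used only as a yardstick for the settings. In ER stress, where 23 genes fell, 3 passed 3-fold, and with the median of the other 6 libraries as the reference 9 fell and the median was -0.68. In oxidative stress, where 11 fell, the count was 7 with a pseudocount of 5 TPM, 6 after centring, 3 with the other reference, 27 at 1.5-fold and 2 at 3-fold, and the median was -0.55 after centring and -0.42 with the other reference. In osmotic stress, where 7 fell, it was 0 with the other reference, 25 at 1.5-fold and 0 at 3-fold, and the median was -0.51 after centring and -0.29 with the other reference. At 1.5-fold 14 genes were lower in glutamine depletion and 4 in hypoxia. With the other reference the median was -0.0245 in glutamine depletion, and it changed sign in hypoxia (0.22) and glucose depletion (0.39). The other reference holds the stressed libraries themselves, which lie below the control. Over 11305 protein-coding genes, 9.79% fell in ER stress, 3.46% in oxidative stress and 7.35% in osmotic stress. Kif11 as the sum of its rows left each count as it was. With 1 library per condition and unknown depth, no change was set against the variation between cultures.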

Other observations

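Some mitosis genes outside the 42 stood apart from the median of their list. Sgo1 (Sgol1 in the table), which protects the cohesion of centromeres, stood at 12.9 TPM in the control, 10.6 under ER, 5.20 under oxidative and 1.08 under osmotic stress, 13.3 without glutamine, 7.88 in hypoxia and 11.3 without glucose. Osmotic stress stands far below the other libraries, with a log2 change of -2.74, the largest of the 59 further mitosis genes in that condition. Zwint, a kinetochore gene, was highest in oxidative stress at 216 TPM, against 128 TPM in the control (0.76), and Cks1b, a partner of CDKs, was highest in ER stress at 178 TPM, against 124 TPM (0.52). Neither passed 2-fold. Bora, an activator of Aurora A, was at 9.20 TPM in the control, 3.31 TPM in osmotic stress and 4.12 TPM in hypoxia. These 4 genes were chosen after their values were seen.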
